A study of Ambystoma mexicanum with 7 samples.

Results

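Accessible chromatin of the regenerating limb was set against that of the uninjured limb in Ambystoma mexicanum, the axolotl, which rebuilds a whole limb after amputation. The members were all peaks of the blastema list and of the intact list, 168368 and 25843 in number, or 194211 of the 702981 peaks in the 4 lists of the series. They were compared by position, width and summit, and a peak was called shared where it had 1 base or more in common with a peak of the other list. The blastema group held 2 samples of blastema together with wound epidermis, and their day of collection is not stated. The intact group held 3 samples of limb tissue that the series design calls homeostatic and places at 14 days post-amputation. All 5 samples came from wild type animals, and each library was prepared from 10000 living cells sorted for a DNA content of 4C, that of cells that have copied their genome. No treatment other than amputation is given. Whether the samples of a group came from different animals is not stated, and each list pools its samples.

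ATAC-seq uses the transposase Tn5, which inserts sequencing adapters preferentially where DNA is not wrapped in nucleosomes. Its peaks mark promoters, enhancers and other stretches that regulatory proteins can reach. A blastema is the mound of progenitor cells that gathers at the stump after amputation, beneath a wound epidermis whose signals it needs to grow. Intact limb holds many differentiated cell types, among them skin, muscle, skeleton and connective tissue. The blastema samples thus joined a mesenchymal and an epithelial tissue, and in such bulk samples fewer cells of a type and less accessibility per cell cannot be told apart. No gene was assigned to a peak, because the annotation at hand is of another genome assembly, so the labelled tissues were not checked against markers.

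The authors pooled the samples of each group into 1 list, so no sample has values of its own and no test between the conditions was possible. The intervals given are exact (Clopper-Pearson) 95% intervals over peaks and cover counting error only. No read counts were at hand, so depth was inferred from the background, and by that measure it differed strongly. The lowest background at a summit was taken as the genome-wide number of tags expected by chance. It was 2.49 in the blastema list and 0.529 in the intact list, a ratio of 4.72. It can also depend on peak-calling settings, which are not stated. The blastema list was 6.52 times as long as the intact list and covered 73.0 Mb against 10.6 Mb. The list of systemically activated limb, which is uninjured limb of animals amputated elsewhere, was used only as a point of reference. So was the all-sample list, taken from its name to pool the 7 samples.

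By an overlap of at least 1 base, most of the accessible territory of intact limb was also called in blastema. A blastema peak overlapped 23233 of 25843 intact peaks, 89.9% (95% interval 89.5 to 90.3), and blastema peaks covered 91.1% of the bases inside intact peaks. The reverse share was small: 22215 of 168368 blastema peaks, 13.2% (13.0 to 13.4), were overlapped by an intact peak, and intact peaks covered 13.2% of the bases inside blastema peaks. The 22215 shared blastema peaks were wide, and intact peaks filled 50.4% of their length. These shares have no replicate check, and they depended on the rule. They were 42.6% of intact and 6.54% of blastema peaks when the overlap had to take up 50% of each peak. Among peaks with a fold of 5 or more they were 45.0% and 43.4%. With the blastema list cut to the intact length by the authors' −log10 q, they were 67.9% and 63.9%. That cut kept blastema peaks down to a −log10 q of 9.27, while the intact list reached down to 1.33.

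Width separated shared from unshared sites in both lists. Shared blastema peaks had a median width of 827 bases (quartiles 588 and 1090), against 302 (231 and 434) for unshared ones. Shared intact peaks had a median width of 376 bases (256 and 544), against 210 (200 and 263) for unshared ones. The quartile ranges of shared and unshared peaks did not overlap in the blastema list and overlapped slightly in the intact list. Of blastema peaks at the smallest width, 200 bases, 120 of 15412 were shared, 0.779%, which is far below the 13.2% of the whole list. The share was 5.54% at 301 to 500 bases, 31.8% at 501 to 1000 bases and 74.7% at 1001 to 2000 bases. Among the 171 blastema peaks wider than 2000 bases, 155 were shared, 90.6% (85.3 to 94.6). For intact peaks the share was already 63.3% at 200 bases and 95.7% at 301 to 500 bases. All 473 intact peaks wider than 1000 bases were shared.

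**Figure D1:**
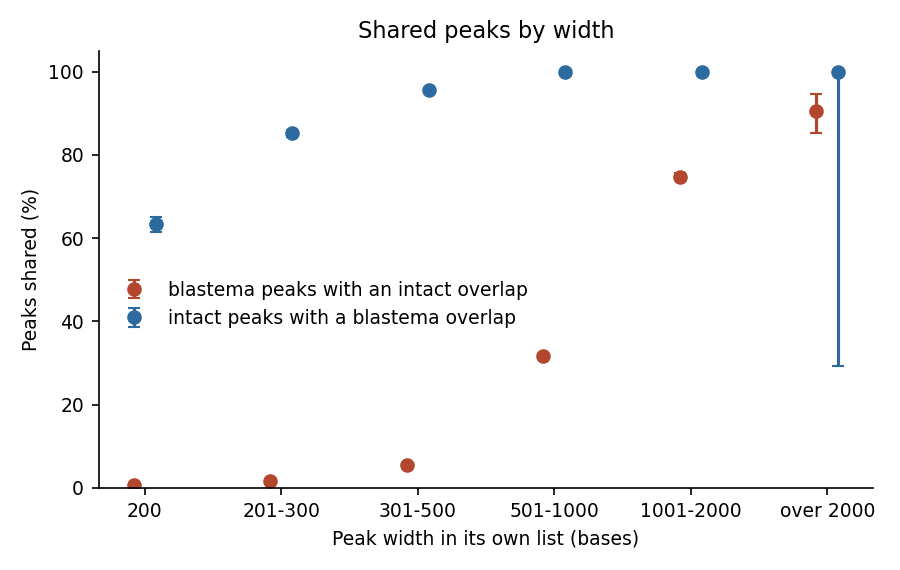
Percent of the peaks of each list (vertical axis) that a peak of the other list overlapped, by peak width in bases (horizontal axis); bars are exact 95% intervals over peaks. The share of blastema peaks rises from 0.779% to 90.6% and that of intact peaks from 63.3% to 100%, where the widest intact class holds only 3 peaks.

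Wide peaks were also tall, so the share was read again among blastema peaks of similar height, counted as tags at the summit. Among blastema peaks with 30 to 39 tags, 3.71% of those 201 to 300 bases wide were shared, against 38.7% of those 1001 to 2000 bases wide. With 50 to 69 tags these shares were 16.0% and 89.6%. Within these classes the wide peaks were still somewhat taller, with medians of 35 against 33 tags in the first and 60 against 54 in the second. The narrow peaks stood on a higher local background, with medians of 10.7 against 7.31 tags and 20.3 against 12.4. The part of the background and of the remaining height difference in these shares was not tested.

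Most shared sites paired a single blastema peak with a single intact peak. There were 20943 such one-to-one sites, which took up 90.1% of the shared intact peaks and 94.3% of the shared blastema peaks. At 20118 of them, 96.1% (95.8 to 96.3), the blastema peak was the wider. Median width was 808 bases in blastema and 381 bases in intact limb, and the median ratio at a site was 1.88 (quartiles 1.43 and 2.60). The intact peak lay wholly inside the blastema peak at 16937 sites, 80.9% (80.3 to 81.4), and the blastema peak wholly inside the intact peak at 194. At the other 3812 sites the peaks were staggered. Blastema peaks reached a median of 164 bases past the intact peak on the side of lower coordinates and 165 bases on the other side. Neither direction of the coordinates was thus favoured across sites, and evenness within a site was not computed.

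Across the 4 lists, the width of common sites stood in the same order as the lowest background. At the 11038 sites with exactly 1 peak in each of the 4 lists, median width was 383 bases in the systemically activated list, 494 in the intact list, 916 in the blastema list and 1083 in the all-sample list. The lowest backgrounds of these lists stand in the same order, at 0.375, 0.529, 2.49 and 4.22 tags. Blastema peaks were thus narrower than those of the all-sample list, which is taken to include the limb samples. The lowest background of that list exceeds those of the group lists added together, and the reason is not known. The systemically activated and intact lists, which have the lower backgrounds, are both of uninjured limb. Depth and tissue thus cannot be told apart between the group lists, and the part of depth in the width difference was not tested. Sorted by intact width, the median width ratio at one-to-one sites fell from 2.56 at most 300 bases to 1.28 at 1001 to 2000 bases. Sorted by blastema width, it rose from 1.02 at most 300 bases to 3.17 over 2000 bases. Each of these widths is a part of the ratio, so neither trend is a separate property of wide sites.

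**Figure D2:**
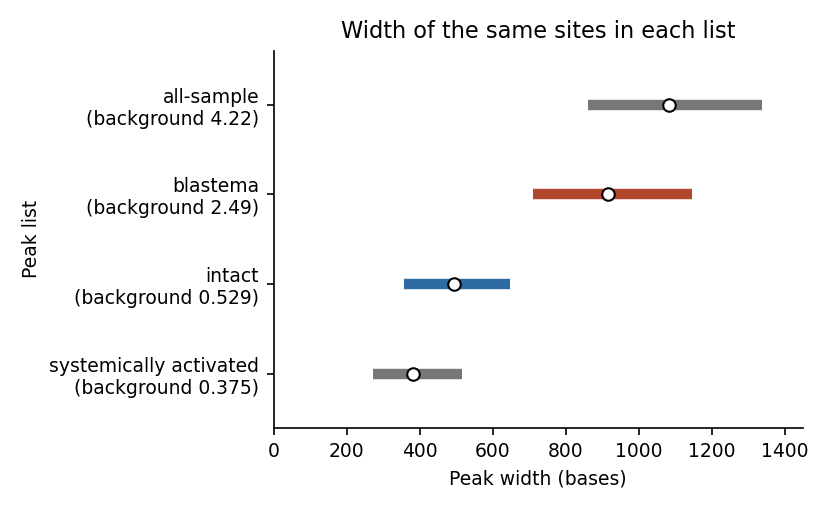
Width in bases (horizontal axis) of 11038 sites that have 1 peak in each list, by list (vertical axis, with the lowest background of the list in tags); bars span the quartiles and circles are medians. Median width rises with the background, from 383 bases to 1083 bases.

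At the summit, blastema had more tags than intact limb at 20900 of 20927 one-to-one sites, but mostly by less than the ratio of lowest backgrounds. The median was 49 tags in blastema (quartiles 33 and 64) and 16 tags in intact limb (12 and 22), and the median ratio at a site was 2.76 (2.33 and 3.25). The ratio of the lowest backgrounds, 4.72, was reached at 366 sites, 1.75%. Relative to the genome-wide background, shared sites thus held more tags in the intact list than in the blastema list. The median ratio was 2.88 at 5 to 9 intact tags, 2.92 at 10 to 19, the largest class, 2.70 at 20 to 29 and 1.98 at 50 or more. Intact tags are the denominator of this ratio, so part of the fall at tall intact peaks can come from the sorting itself. The local background, which includes the tags of the peak itself, had a median ratio of 4.33. Only sites called in both lists enter these values, and with pooled lists no sample's own ratio is known.

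**Figure D3:**
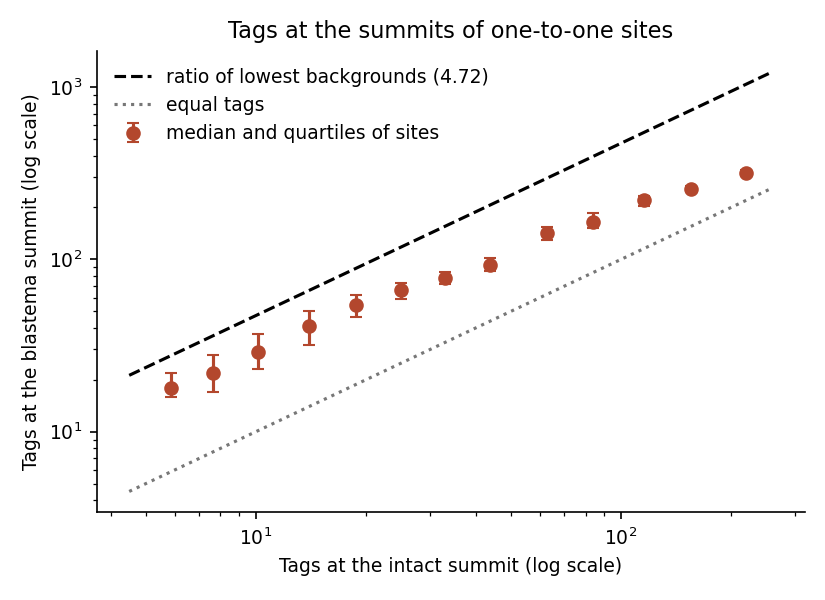
Tags at the blastema summit against tags at the intact summit at one-to-one sites, both on log scales; points are medians of sites grouped by intact tags and bars are quartiles. All points lie between the line of equal tags and the dashed line of the background ratio, 4.72.

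Summits of paired peaks lay close together. Their median distance was 76 bases (quartiles 26 and 172), within 10 bases at 2548 sites, 12.2%, and within 50 bases at 8133 sites, 38.8%. At 405 sites, 1.93%, they were more than 500 bases apart. There was no preferred side, with the blastema summit at the higher coordinate at 10560 sites and at the lower at 10175. The intact summit lay inside the blastema peak at 97.5% of sites, and the blastema summit inside the intact peak, mostly the narrower, at 83.9%. At 80.9% of sites the intact peak lay wholly inside, so most of the first share is fixed by that. No expected value was computed for the second share. Tall sites had the closest summits. The median distance was 93 bases where the intact summit had 5 to 9 tags, 66 bases at 20 to 29 tags and 11 bases in the 149 sites with 50 tags or more. The median was 58 bases for blastema peaks of at most 300 bases and 128 bases for those over 2000 bases. Wider peaks leave room for larger distances, so part of this rise is built in. By intact width the median was 75 bases at 200 to 300 bases, 73 at 301 to 500 and 80 at 501 to 1000. It was 143 bases at 1001 to 2000.

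**Figure D4:**
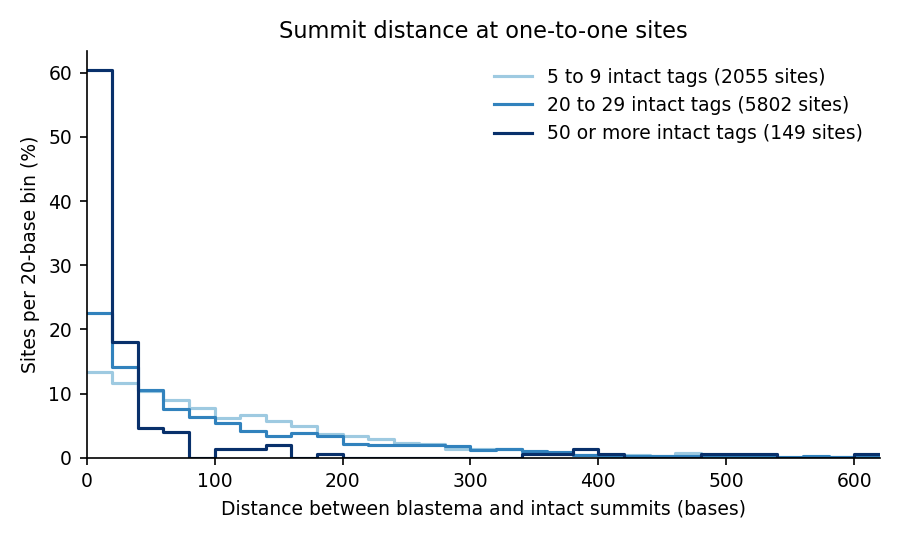
Distance in bases between the blastema and intact summits of one-to-one sites (horizontal axis) as percent of sites per 20-base bin (vertical axis), for 3 classes of tags at the intact summit. Medians are 93, 66 and 11 bases in order of rising tags, and distances beyond the axis are not drawn.

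Of the 5 one-to-one sites of highest fold in blastema, the first 4 had summits within 4 bases of each other. The first, on arm 3p segment 1 (237846463 to 237846864), had 168 tags in blastema and 78 in intact limb, with folds of 25.8 in each list and summits 2 bases apart. The second, on 3p segment 1 (367593423 to 367593818), had 222 and 117 tags and summits 4 bases apart. The third, on 3q segment 0 (130527972 to 130528498), had 274 and 155 tags and summits 3 bases apart. The fourth, on 9q segment 0 (329360509 to 329360990), had 110 and 40 tags with summits 1 base apart. The fifth, on 5q segment 0 (20446186 to 20446768), had 109 and 34 tags and summits 91 bases apart. Peaks at all 5 were compact, 396 to 583 bases wide in blastema and 339 to 474 bases in intact limb, and the systemically activated list overlapped each of them. A fold is the authors' ratio of tags to background within a list, and positions are counted within the segments of chromosome arms that the files name.

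The widest separations came from broad blastema peaks over a much smaller intact peak. On 8q segment 0 a blastema peak of 2172 bases, from 187200669 to 187202840, overlapped an intact peak of 239 bases, and the summits were 1815 bases apart. On 13q a blastema peak of 2209 bases, from 436458779 to 436460987, overlapped an intact peak of 308 bases, with summits 1448 bases apart. On 1p segment 1 a blastema peak of 1800 bases, from 220063726 to 220065525, overlapped an intact peak of 332 bases, at a summit distance of 1266 bases. On 3q segment 0 (234732557 to 234734809), the peaks were 2253 and 926 bases wide and the summits 1352 bases apart. The exception was on 3p segment 1 (259877512 to 259880359), where both peaks were broad, 2848 and 2480 bases, with summits 1280 bases apart. At each of these sites but that on 3p, the summit distance exceeded the width of the intact peak. The blastema summit there thus lay outside the intact peak, in a part of the blastema peak that the intact peak did not cover.

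Several intact peaks could overlap 1 blastema peak, and the reverse was rare. Of the blastema peaks, 21128 overlapped 1 intact peak, 1061 overlapped 2 and 26 overlapped 3, and none overlapped more. The 1087 peaks with 2 or 3 overlapped 2200 intact peaks, 9.47% of the shared ones. Where intact peaks had to lie wholly inside, 891 blastema peaks had 2 or more. Only 95 intact peaks overlapped 2 blastema peaks, and none overlapped more. Blastema peaks with several intact peaks had a median width of 1297 bases, against 804 for those with 1, and a median of 61 against 49 tags. The systemically activated list overlapped 80.3% of them, against 56.1% of those with 1 intact peak and 9.23% of the whole blastema list. A peak over several intact peaks must span the gap between them, so part of its greater width is built in. Shares at like width and height were not computed for these sets.

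Intact peaks that overlapped the same blastema peak were close neighbours, which is partly built in, since their gap cannot exceed the width of that peak. The gap between them had a median of 171 bases (quartiles 127 and 264), and their summits were a median of 541 bases apart. Of 661 neighbouring intact peaks with a gap of 101 to 200 bases, 633 pairs, 95.8%, were joined by 1 blastema peak. The share fell to 64.8% at gaps of 301 to 500 bases, 29.3% at 501 to 1000 and 3.17% at 1001 to 2000. A blastema peak must be wider than the gap it joins, and 5.68% of blastema peaks were wider than 1000 bases. Part of this fall is thus built in. The summit of the blastema peak lay inside one of the intact peaks in 959 of 1087 cases, 88.2%. Where 2 intact peaks differed in tags, the blastema summit was nearer to the summit of the taller one in 681 of 970 cases, 70.2% (67.2 to 73.1).

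The 5 widest of the blastema peaks over 3 intact peaks lay on different arms. The first, 2793 bases on 5q segment 0 (58676211 to 58679003), had 255 tags on a background of 82.8. Its intact peaks ran from 58676256 to 58676751, from 58676910 to 58677277 and from 58677596 to 58678907, with 95, 137 and 139 tags. The second, on 1p segment 0 (44843013 to 44845493), had 96 tags on a background of 32.1, and its intact peaks had 35, 34 and 33 tags. These 2 sites stood on backgrounds far above the median of shared blastema peaks, 9.60. The others had lower backgrounds: 2q segment 2 (1753742 to 1755995) with 52 tags on 11.5, 6q segment 3 (210470534 to 210472781) with 73 on 21.3, and 7q segment 1 (90027400 to 90029646) with 71 on 13.8. On 7q the intact peaks were nearly equal, at 19, 18 and 17 tags.

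Where 1 intact peak overlapped 2 blastema peaks, the blastema list had split what the intact list joined. The widest case was on 7p segment 0, an intact peak from 440774654 to 440775825 with 27 tags. Its blastema peaks ran from 440774398 to 440775487 with 81 tags and from 440775619 to 440775903 with 45. The next were on 4q segment 2 (66458626 to 66459736), 5q segment 2 (36271181 to 36272219), 11q segment 0 (241703847 to 241704882) and 10p segment 2 (108663465 to 108664479). In all 5 cases the first blastema peak along the segment had more tags than the second. The 95 such intact peaks had a median of 13 tags.

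Blastema peaks with no intact overlap numbered 146153. Most were weak and more than 100000 bases from an intact peak. They had a median of 19 tags (quartiles 16 and 26) on a background of 4.70, against 50 tags on 9.60 for shared ones, and their median distance to the nearest intact peak was 233154 bases. Of the 146153, 99417, 68.0%, were more than 100000 bases from one, and 3421, 2.34%, were within 1000 bases. Another 2531 were on sequences without an intact peak and are not in the median. The intact list was sparse, with a median of 9.51 peaks per 10 Mb across the arms. Distances of randomly placed sites were not computed, so these values do not show that unshared blastema peaks avoid intact peaks. The systemically activated list overlapped 2802 of the unshared blastema peaks, 1.92%, against 57.3% of shared ones and 9.23% of the whole list. These shares compare peaks of unlike height. With tags divided by the ratio of lowest backgrounds, 4.72, that list overlapped 0.685% of unshared peaks below 5. It overlapped 38 of the 119 unshared peaks at 15 or more, 31.9%. The all-sample list overlapped 138697 of all the unshared blastema peaks, 94.9%, against 95.6% of all blastema peaks.

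Close to intact peaks, unshared blastema peaks were dense, then sparse, then dense again. There were 4964 per kb of distance at 250 to 500 bases from an intact peak and 1003 per kb at 1000 to 2000 bases. The number fell to 301 per kb at 3000 to 4000 bases and returned to 946 per kb at 6000 to 7000 bases. Beyond that it declined slowly, to 581 per kb at 10000 to 20000 bases. The background at the summits of these peaks was high in the sparse zone and lower past it, with medians of 11.2 tags at 1000 to 2000 bases, 12.2 at 3000 to 4000 and 5.90 at 6000 to 7000. Peaks in the sparse zone had a median of 36 tags, against 23 at 6000 to 7000 bases. The part of the local background in this pattern was not tested.

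**Figure D5:**
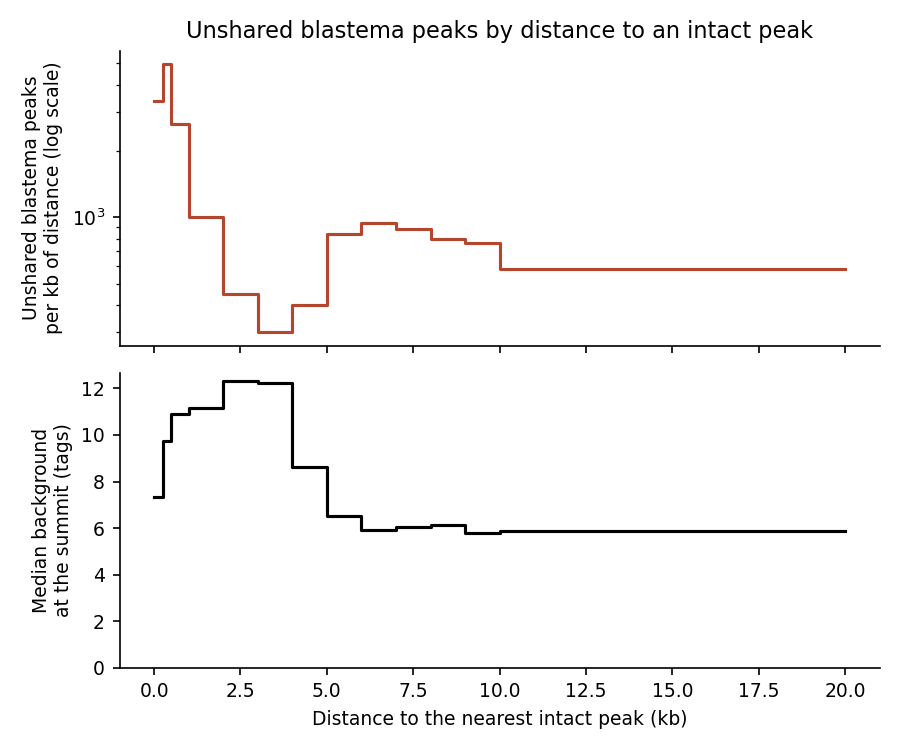
Unshared blastema peaks per kb of distance to the nearest intact peak (top, log scale) and the median background in tags at their summits (bottom), against that distance in kb. Within the 20 kb drawn, the density is lowest at 3 to 4 kb, 301 peaks per kb, where the median background is 12.2 tags.

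The widest unshared blastema peaks were broad regions on raised backgrounds. The first, 2635 bases on 5q segment 2 (311439372 to 311442006), had 81 tags on a background of 32.1 and lay 5652 bases from an intact peak. The second, 2406 bases on 8q segment 1 (357752982 to 357755387), had 97 tags on 46.4. The third, 2212 bases on 8q segment 1 (385839341 to 385841552), stood out by 68 tags on 14.2 (fold 4.55), with the nearest intact peak 527056 bases away. The others, on 3q segment 2 (233180136 to 233182344) and on 4q segment 2 (290220489 to 290222696), had 57 tags on 16.8 and 46 on 13.9. No systemically activated peak overlapped these 5.

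The unshared blastema peaks most remote from an intact peak lay mainly in 1 stretch of arm 7q. The most remote was on 11q segment 1 (239760070 to 239760322), 22970051 bases from an intact peak. The next 4 were on 7q segment 1 (50512330 to 50512729), 50509296 to 50509614, 55690553 to 55690838 and 49487753 to 49488105, at distances of 22931620, 22928586, 22884813 and 21907043 bases. Only the third of these on 7q had a fold above 5, at 8.30 with 28 tags.

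The depth of the intact list, inferred from its background, limits what it could call. At its lowest background the intact list called no peak with fewer than 5 tags. Divided by the ratio of lowest backgrounds, 4.72, the tags of 101794 blastema peaks came to fewer than 5, and 2.17% of those peaks were shared. Of the 66574 peaks that reached 5 expected tags, 20011, 30.1% (29.7 to 30.4), were shared. At 10 expected tags the share was 80.4% of 14759 peaks, and at 15 it was 96.7% of 3575, all against 13.2% of the whole list. These values turned on the ratio used. With the tag ratio of one-to-one sites, 2.76, only 16364 peaks came to fewer than 5 expected tags. Of the 152004 that reached 5, 14.5% were shared, and the share was 38.9% of 48275 at 10 expected tags and 70.2% of 19883 at 15. The local background also limits a call. With it scaled as well, by the background ratio of 4.72, 14974 blastema peaks had an expected −log10 p at or above the lowest in the intact list, 4.46, and 12162 of them, 81.2% (80.6 to 81.8), were shared. At an expected −log10 p of at least 6 the share was 94.6% of 6467 peaks, which left 352 unshared, and at 8 it was 97.6% of 2007, which left 48. The 23233 shared intact peaks outnumbered these expected calls. With 2.76 as the scale, 35879 peaks passed 4.46 and 51.3% were shared. Of the 10570 that passed 8, 89.2% were shared, which left 1146 unshared. The scaling assumes that a site holds the same part of the tags in both groups.

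A small set of blastema peaks was unshared although the scaled tags were well above what an intact call needed. The first 6 by expected −log10 p were picked out after their values were seen. The first was on 1p segment 1 (308812255 to 308812636), with 67 tags, where 14.2 were expected in intact limb. The second was on 5q segment 1 (65137832 to 65138127) with 91 tags and 19.3 expected. The third, on 5q segment 0 (58641794 to 58642088) with 121 tags and 25.6 expected, lay 2097 bases from an intact peak. It was in the same neighbourhood as the 5q peak over 3 intact peaks described above. Then came 6p segment 2 (396494308 to 396494662) with 49 tags, 3p segment 0 (6736404 to 6736691) with 48, and 4q segment 2 (401142234 to 401142807) with 77. Of these 6, a systemically activated peak overlapped the second and the 4q peak. The 4q peak was 228 bases from an intact peak, while that on 6p was 467403 bases away.

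Intact peaks with no blastema overlap numbered 2610, or 10.1% of the intact list, and nearly all were small. Their median was 9 tags (quartiles 7 and 11) against 17 for shared intact peaks, and 1155 of them, 44.3%, had the smallest width of 200 bases, against 8.57% of shared ones. None was wider than 1000 bases. A −log10 q of at least 5 was reached by 280, 10.7%, against 58.7% of shared intact peaks. The systemically activated list overlapped 122 of them, 4.67%, against 50.2% of all intact peaks and 55.3% of shared ones. The all-sample list overlapped 2188 of them, 83.8%, against 98.4% of all intact peaks. These shares compare peaks of unlike height. The blastema list called no peak with fewer than 10 tags at its lowest background. Scaled by the ratio of lowest backgrounds, 4.72, all 25821 intact peaks with a solved tag number reached 10 tags, 2605 of them unshared. That bar thus could not separate the peaks, and the local background was not scaled here. Expected tags of 50 or more were reached by 20727 intact peaks, of which 771 were unshared. With the tag ratio of one-to-one sites as the scale these numbers were 9511 and 26. Of the 771, the systemically activated list overlapped 87, 11.3%, against 4.67% of all unshared intact peaks.

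A minority of unshared intact peaks bordered a blastema peak. The distance was at most 200 bases for 214 of them and at most 1000 bases for 370, 14.2%, against 2.34% of unshared blastema peaks within 1000 bases of an intact peak. The lists differ in length, so these shares are not directly comparable. The median distance was 46375 bases.

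The widest unshared intact peaks were of moderate height. That on 8q segment 1 (293180418 to 293181099) was 682 bases wide with 17 tags, and that on 10q segment 1 (54267657 to 54268333) was 677 bases wide with 17 tags. The peak on 14q from 353663122 to 353663765 had 22 tags and a −log10 q of 8.25, the highest of the 5. The systemically activated list overlapped these 3. It did not overlap the peaks on 7q segment 1 (230469889 to 230470520), with 13 tags, and on 7p segment 0 (32957192 to 32957812), with 14 tags, which lay 60 bases from a blastema peak. The unshared intact peaks most remote from a blastema peak had 6 to 10 tags. They lay on 6q segment 1 (130807728 to 130807927), 8q segment 0 (129050501 to 129050768) and 10p segment 2 (136661683 to 136662048), and on 5p segment 2 (315790809 to 315791008) and from 344331524 to 344331723. Their distances ran from 6295210 to 13202508 bases, and neither 5p peak was overlapped by the all-sample list.

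Both lists covered all 28 chromosome arms with a similar order of density. Per 10 Mb of arm, blastema peaks ran from 45.3 on 5p to 93.2 on 13q, and intact peaks from 5.97 on 5p to 17.3 on 13q. Across the 28 arms the densities went together (Pearson r = 0.97, Spearman rho = 0.97, a description over arms that share their libraries and differ in length). The relation was not proportional. There were 5.20 blastema peaks per intact peak on 14p, 5.40 on 13q and 5.47 on 13p, against 7.39 on 6p, 7.58 on 5p and 7.78 on 7q. The lowest ratios thus lay on arms with many intact peaks per 10 Mb, 14.4 on 14p, 17.3 on 13q and 14.8 on 13p, and the highest on arms with few. Intact peaks are the denominator of this ratio, so part of this order can be built in.

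Shared percentages also differed between arms. On 13q, 17.2% (16.1 to 18.3) of blastema peaks and 95.3% (93.7 to 96.7) of intact peaks were shared. On 7q, 11.0% (10.2 to 11.9) of blastema peaks were shared, and the lowest intact share was 86.3% (83.4 to 88.8) on 8q. These arms are the highest and lowest of the 28, picked by these same values, so their intervals give no test of a difference between arms. Median background by arm ran from 4.52 to 5.58 tags in blastema and from 1.82 to 2.34 in intact limb. Blastema peaks on 13p and 13q had median widths of 381 and 364 bases against 329 in the whole list. Median widths of intact peaks ran from 318 bases on 8q to 406 on 14p. The part of background and width in the shared percentages of arms was not tested. Whether arms differ this way in each sample was not tested.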

How the data were processed

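ATAC-seq peak lists of 4C cells from axolotl blastema (2 samples) and intact limb (3 samples) were compared. Per the submitters' processing notes, alignment was with Bowtie2 2.3.2 and peak calling with MACS2. The settings and version of the latter, the genome build, duplicate handling and any Tn5 shift are not stated in these sources. The authors deposited 1 list per group, so samples have no values. Per peak the authors deposited start, end, summit offset, fold (a ratio of tags to background), −log10 p, −log10 q and a score, which was not used.

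Tags and background at each summit were solved from the deposited fold and −log10 p with the MACS2 formulas, within 0.001. A single whole number was found for 99.9% of intact and 100% of blastema peaks, and the others were left out of tag values. Backgrounds other than the lowest were multiples of 0.02 (within 0.05 of a step) in 100% of cases, and the smallest width was 200 bases in all 4 lists. That is what tags of 200 bases counted over 10000 bases would give, a setting not given in the sources used here. Overlaps and distances were computed in Python 3.11.15 with numpy 2.4.6, pandas 2.3.3 and scipy 1.17.1, and tested on simulated lists. Arm length was taken as the end of the last all-sample peak. Local background includes the peak's own tags.

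Named peaks were 5 in each of 8 sets on named arms: most peaks of the other list (both lists), widest unshared (both), most remote unshared (both), and one-to-one sites of highest blastema fold and of largest summit distance. Members, sets and settings were chosen with earlier results of these data known. Positions are 1-based. Genes and sequences were not used here, since no genome of the files' build was at hand.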

Additional observations from a re-analysis of the deposited data

How the results depend on the processing

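No replicate could be left out, since each group has 1 list. No paired analysis was possible because the samples of a group have no values of their own. Of intact and of blastema peaks, the shared percentages came to 42.6% and 6.54% under a rule of 50% reciprocal overlap, 87.6% and 11.1% with the summit inside, 95.9% and 20.4% for peaks with −log10 q of 5 or more, and 45.0% and 43.4% for peaks with fold of 5 or more. Cutting the blastema list to the intact length by highest −log10 q gave 67.9% and 63.9%, and merging peaks within 500 bases gave 89.5% and 13.9%. In the same order, peaks over several of the other list were 328 and 15 (−log10 q), 143 and 2 (fold) and 184 and 1 (merged) in blastema and intact; intact peaks over 2 blastema peaks were 6 at equal length and, by construction, 0 when the intact peak had to lie wholly inside. One-to-one sites numbered 11007 under the 50% rule, 12663 by −log10 q and 6977 by fold. Median width ratio was 1.48, 1.79 and 1.75 under these 3 settings, and the intact peak lay wholly inside at 77.0%, 87.7% and 87.7% of sites, or 88.6% at equal length. Median summit distance was 65, 62 and 52 bases, or 68 at equal length. The 50% rule keeps peaks of like width, so its lower ratio follows from its construction. Unshared blastema peaks lay a median of 381660 bases from an intact peak by −log10 q, 170470 at equal length and 237036 on named arms; unshared intact peaks lay 95512 and 249763 bases from a blastema peak in the first 2 settings. Of blastema peaks with enough expected tags, 28.0% were shared with the background at the 5th percentile. With the tag ratio of one-to-one sites 152004 peaks qualified and 14.5% were shared, and with local background scaled too 14974 qualified and 81.2% were shared; these last 2 settings were chosen after seeing the data. The cause of the other changes was not tested. The median width ratio was above 1 in all settings in which it was computed, which leaves out the summit and merging settings. Intact peaks were shared more often than blastema peaks in each setting of the shared percentages. Except at equal length, the intact list was the shorter. As most overlaps pair 1 peak with 1, a shorter list then has the higher share by arithmetic. The inferred depth of the intact list limits what its absence of a peak can show.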
